A study of Mus musculus with 4 samples.

Results

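Transforming growth factor beta (TGF-beta) and platelet-derived growth factor (PDGF) are the best known secreted signals of liver scarring, and this account follows their genes through liver nuclei of mice with and without Nampt in hepatocytes. The 10 genes were listed by name, as 6 ligands (Tgfb1, Tgfb2, Tgfb3, Pdgfa, Pdgfb and Pdgfd) and 4 receptors (Tgfbr1, Tgfbr2, Pdgfra and Pdgfrb), and all 10 were found among the 54464 genes of the count matrix. Single-nucleus RNA-Seq (snRNA-Seq) had been run on livers of 3 mice with a hepatocyte-specific Nampt knockout (HNKO) and of 3 WT mice, and each mouse is a separate animal told apart by its hashtag, an oligonucleotide-tagged antibody. WT mice were Nampt fl/fl littermates without Cre. HNKO mice were Nampt fl/fl with 1 copy of Alb-Cre, in which the albumin promoter drives Cre in hepatocytes and the floxed Nampt allele is thus shared by both genotypes. All were females, 8 to 12 weeks old when the study began, fed a purified low-fat diet for 6 weeks, and which of the drinking-water arms of that cohort they came from is not given in the sources used here. The question was which cell types send and which receive these signals, and whether the levels differed between the genotypes.

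TGF-beta is stored in the matrix in a latent form and, once released, binds a type II receptor, which recruits and activates a type I receptor. The type I receptor phosphorylates SMAD proteins that enter the nucleus and turn on genes of the extracellular matrix. PDGF ligands are paired chains that bring together tyrosine kinase receptors, and in liver they are known as growth and migration signals for hepatic stellate cells, the vitamin A storing cells that turn into matrix-producing myofibroblasts after injury. Liver endothelial cells, Kupffer cells (the resident macrophages), other leukocytes and bile duct cells are all known sources of one or another ligand.

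The data held 5193 nuclei in 21 clusters named by the authors, which form 6 cell types. There were 1932 hepatocyte nuclei in WT and 2478 in HNKO mice, 81 and 164 endothelial, 62 and 109 stellate, 38 and 139 CD45+ (leukocytes other than Kupffer cells), 16 and 64 Kupffer, and 2 and 108 cholangiocyte nuclei. Each mouse had 629 to 1063 nuclei and 3766532 to 7763269 unique molecular identifiers (UMIs, the counted RNA molecules), and the median UMI count of a nucleus was 3447 to 3973 in WT and 4438 to 4912 in HNKO mice. A mouse's own hashtag made up 66.1% to 80.3% of its hashtag counts in 5 mice, but 49.0% in HNKO mouse 3. Nampt itself did not separate the genotypes in hepatocytes, at 91.6, 108 and 103 CPM in WT mice 1, 2 and 3, against 91.7, 147 and 71.1 CPM in HNKO mice 1, 2 and 3 (CPM, UMIs of the gene in every 1000000 UMIs), so that genotype rests on the labels here. The hepatocyte, endothelial, stellate, Kupffer and cholangiocyte marker lists each had their highest sum in their own type, whereas the CD45+ list was higher in Kupffer than in CD45+ cells of HNKO mice (3280 against 2827 CPM), with Ptprc and Bank1 high in both. Among single markers, Stab2 was at 5520 CPM in endothelial cells and Reln at 5783 CPM in stellate cells. The myofibroblast markers Acta2 and Gli1 were at 15.9 and 0 CPM in stellate cells, and Postn and Eln at 144 and 160.3 CPM. Hepatocyte RNA was found in every type, with the hepatocyte gene Alb at 642 to 2137 CPM outside hepatocytes and 5122 CPM within them.

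Promoter sequences are shown for the 3 ligands whose levels by cell type or genotype stand out below. They were taken from RefSeq on GRCm38.p6 and run from 250 bases before to 50 bases after the annotated transcription start, and 7 of the 10 genes had an entry. Capitals mark 2 motifs that were searched on both strands, the GC box (GGGCGG, or CCGCCC on the other strand), which 35.9% of 32544 promoters held, and the TATA box (TATAAA, or TTTATA), which 13.6% held. Pdgfa has an entry for 2 starts, and the one printed is the upstream one, which lies at chr5:138994895-138995194 on the minus strand. Tgfb2 lies at chr1:186705940-186706239 on the minus strand and Pdgfd at chr9:6168236-6168535 on the plus strand.
Pdgfa: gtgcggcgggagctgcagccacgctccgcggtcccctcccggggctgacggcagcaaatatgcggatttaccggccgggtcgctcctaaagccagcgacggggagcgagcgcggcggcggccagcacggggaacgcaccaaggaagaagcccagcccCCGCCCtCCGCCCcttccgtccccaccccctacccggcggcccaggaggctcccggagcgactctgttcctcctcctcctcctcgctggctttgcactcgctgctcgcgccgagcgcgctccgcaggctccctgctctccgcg
Tgfb2: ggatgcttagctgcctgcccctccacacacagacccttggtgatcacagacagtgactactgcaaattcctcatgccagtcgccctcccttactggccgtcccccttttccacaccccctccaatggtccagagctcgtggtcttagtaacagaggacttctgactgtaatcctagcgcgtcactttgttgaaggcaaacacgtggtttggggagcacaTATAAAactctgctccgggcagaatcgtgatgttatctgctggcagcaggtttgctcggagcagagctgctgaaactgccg
Pdgfd: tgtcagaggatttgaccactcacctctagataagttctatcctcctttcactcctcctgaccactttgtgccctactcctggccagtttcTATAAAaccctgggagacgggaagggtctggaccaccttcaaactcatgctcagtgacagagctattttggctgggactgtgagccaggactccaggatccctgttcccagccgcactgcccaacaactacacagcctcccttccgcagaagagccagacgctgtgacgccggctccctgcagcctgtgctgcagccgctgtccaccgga
A TATAAA began 31 bases before the start of Tgfb2 and 160 bases before that of Pdgfd, and the printed Pdgfa promoter held none. Its GC boxes began 93 and 86 bases before the start. Of the members without a printed promoter, Tgfb1 held 6 GC boxes and Tgfbr1 held 2. A match describes these letters only and shows no binding.

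The expression map of the 10 genes across cell types was uneven and differed for each ligand and receptor. Endothelial cells and leukocytes held the highest levels of Tgfb1, cholangiocytes the highest levels of Tgfb2 and Pdgfd, and stellate cells the highest levels of Pdgfra and Pdgfrb. Tgfbr1 was counted in every cell type, and Tgfbr2 likewise. Levels are given in CPM of the UMIs of a type in a mouse, scaled with TMM (a correction of library totals for a few dominant genes) in the tested types and by the UMI total alone in Kupffer cells and cholangiocytes, in single clusters, in the zones of the lobule and in levels over all mice. They were not corrected for gene length, so levels are compared between cell types and mice and not between genes. Since the clusters were made from these same nuclei, the levels by cell type are a description without a test.

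**Figure D1:**
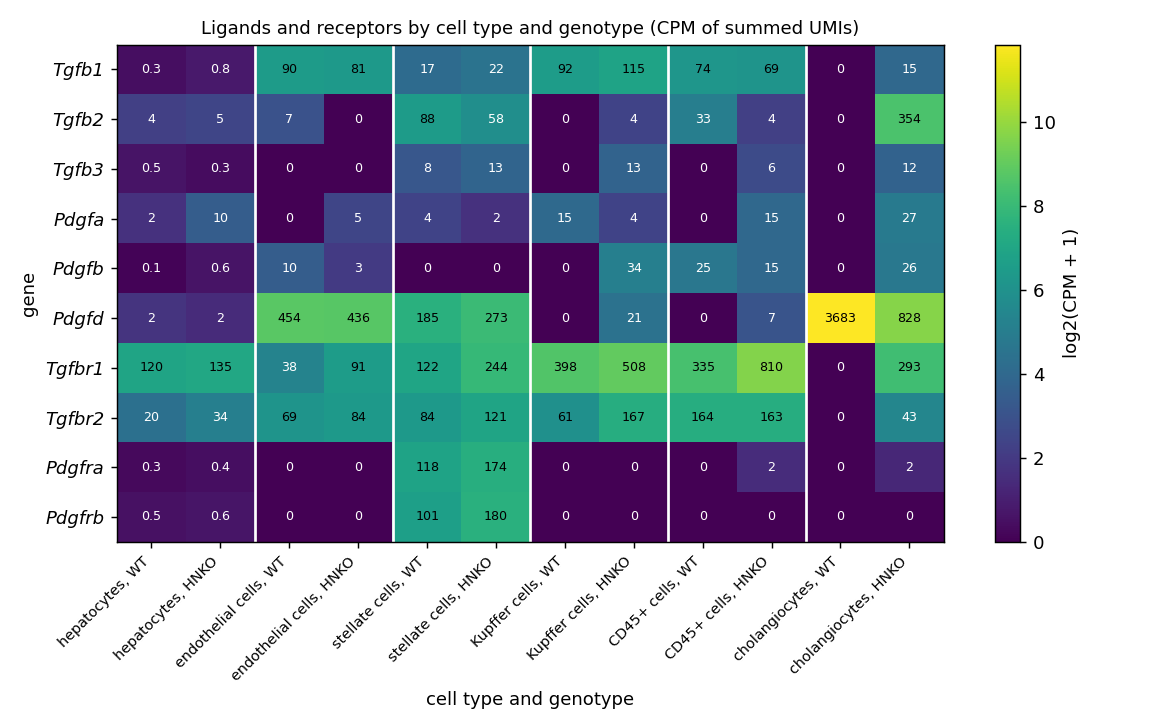
Levels of the 10 genes (rows) by cell type and genotype (columns), as log2(CPM + 1) of the UMIs summed over mice, with the CPM printed in each cell. Pdgfra and Pdgfrb stand in the stellate columns, Pdgfd in endothelial, stellate and cholangiocyte columns, and Tgfbr1 in every column but that of WT cholangiocytes, which rests on 2 nuclei.

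Tgfb1 (chr7:25687002-25705077), the TGF-beta isoform known from leukocytes and platelets, was measured mainly in endothelial cells and leukocytes. In endothelial cells it was at 123, 55.8 and 92.3 CPM in WT mice 1, 2 and 3, against 75.7, 108 and 56.9 CPM in HNKO mice 1, 2 and 3, and the genotypes overlapped (log2 fold change -0.17 with SE 0.42, FDR 0.996 by edgeR). In Kupffer cells it was at 145, 94.3 and 0 CPM in WT mice, against 58.2, 189 and 149 CPM in HNKO mice, from 4 to 29 nuclei per mouse, and in CD45+ cells at 105, 47.1 and 66.03 CPM in WT mice, against 58.6, 59.0 and 87.5 CPM in HNKO mice. Among the leukocyte clusters the level over all mice was 110.2 CPM in Kupffer cells, 103.4 CPM in CD45+ 3, 79.5 CPM in CD45+ 1 and 35.4 CPM in CD45+ 2. The 3 cell types overlapped with each other across mice. Stellate cells held at most 34.98 CPM and hepatocytes 0.24 to 1.0 CPM per mouse.

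Tgfb2 (chr1:186622792-186705989), an isoform known from epithelia and mesenchyme, was highest in cholangiocytes. The level there reached 353, 73.9 and 386 CPM in HNKO mice 1, 2 and 3, from 92, 3 and 137 UMIs. A UMI was found in 22 of 40, 2 of 10 and 26 of 58 cholangiocyte nuclei of these mice. The 2 WT cholangiocyte nuclei held none, which sets no useful limit. In stellate cells it was at 152, 0 and 90.7 CPM in WT mice 1, 2 and 3, against 64.5, 20.4 and 87.9 CPM in HNKO mice, so that WT mouse 2 was at 0 and the genotypes overlapped (log2 fold change -0.59 with SE 0.78, FDR 0.92 by edgeR). A single nucleus held 10 of the 12 stellate UMIs of WT mouse 1 and 5 of the 9 of WT mouse 3. In HNKO mice 1, 2 and 3 a single nucleus held 3 of 11, 2 of 3 and 5 of 12. In hepatocytes Tgfb2 was at 8.0, 2.6 and 2.1 CPM in WT mice, against 8.3, 1.8 and 3.1 CPM in HNKO mice (log2 fold change 0.08 with SE 0.67, FDR 0.984 by edgeR). WT mouse 1 and HNKO mouse 1 stood above the other 4 mice there, and in both a single nucleus held much of the count. A nucleus of the Central 1 cluster held 20 of the 26 hepatocyte UMIs of WT mouse 1 (76.2% of the estimated counts before rounding), and a nucleus of the HNKO 2 cluster held 26 of the 50 UMIs of HNKO mouse 1 (51.7%).

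Tgfb3 (chr12:86056745-86079041) was at the limit of detection, with 34 UMIs over all nuclei, 8 in WT and 26 in HNKO mice. No endothelial nucleus of 245 held a UMI, which allows a share of up to 1.22% of nuclei with a UMI at this depth and sets no limit on nuclei that express the gene. It passed the filter on low counts in no cell type and was not tested.

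Pdgfa (chr5:138976014-138997370), which encodes the PDGF A chain that binds the PDGF receptor alpha, gave the largest log2 fold change between genotypes among the members that passed the count filter, and it lay in hepatocytes. Its level there was 2.5, 2.1 and 2.6 CPM in WT mice 1, 2 and 3, against 10.7, 4.6 and 13.0 CPM in HNKO mice 1, 2 and 3, from 8, 8 and 11 UMIs in WT mice, against 65, 28 and 91 UMIs in HNKO mice. Every HNKO mouse lay above every WT mouse, HNKO mouse 2 by the smallest margin. The median hepatocyte nucleus held 3742.5 UMIs in WT and 5257 UMIs in HNKO mice. A Pdgfa UMI was found in 8, 7 and 10 of 562, 713 and 657 hepatocyte nuclei of WT mice. In HNKO mice it was found in 56, 21 and 73 of 812, 819 and 847 nuclei, with at most 4 UMIs in a nucleus. The mean was 2.39 ± 0.27 CPM in WT against 9.42 ± 4.31 CPM in HNKO mice (n = 3 each, SD), but the difference did not pass the threshold across all genes with edgeR's quasi-likelihood test (log2 fold change 1.97 with SE 0.44, FDR 0.82 by edgeR) or with DESeq2 (FDR 0.069). Without the filter on low counts, or without HNKO mouse 2, the edgeR FDR was 0.0318 and 0.04, and its range over all settings tried was 0.0318 to 0.976.

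Among the hepatocyte clusters, Pdgfa was at 20.8 CPM in HNKO 2, 16.2 CPM in Central HNKO 2, 10.9 CPM in HNKO 1 and 8.1 CPM in HNKO 3, and 1.3 to 5.0 CPM in the other 9. Each of these 4 came almost wholly from 1 mouse. HNKO mouse 1 gave 658 of the 664 nuclei of HNKO 1, and HNKO mouse 3 gave 479 of 494 in HNKO 2, 285 of 288 in HNKO 3 and all 78 in Central HNKO 2. In clusters shared by the genotypes, WT mouse 2 and HNKO mouse 2 were at 1.8 and 3.5 CPM in the Hepatocytes 1 cluster, and at 3.0 and 6.3 CPM in the Periportal 1 cluster. Outside hepatocytes Pdgfa was seen mainly in cholangiocytes, at 19.2, 0 and 36.6 CPM in the HNKO mice and without a UMI in the 2 WT nuclei. The cholangiocyte marker list summed to 320.4 CPM in WT and 488 CPM in HNKO hepatocytes, with Krt19 at 0, and its part in the Pdgfa values was not tested.

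Pdgfb (chr15:79995874-80014977), the B chain known from endothelial cells and platelets, gave 52 UMIs in all, 7 in WT and 45 in HNKO mice. Its level was at most 22.3 CPM in endothelial cells, 53.9 CPM in Kupffer cells and 63.1 CPM in CD45+ cells of any mouse, and 0 of 171 stellate nuclei held a UMI, which allows up to 1.75% of nuclei with a UMI. Cholangiocytes of HNKO mice held 17 of the 52 UMIs, more than any other type, at 11.5, 24.6 and 36.6 CPM in HNKO mice 1, 2 and 3, with a UMI in 15 of 108 nuclei (13.9%). It was not tested in any cell type.

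Pdgfd (chr9:6168584-6378850), a chain that needs proteolytic release and binds mainly the PDGF receptor beta, was high in a subset of cholangiocytes, in endothelial cells and in stellate cells. In the Cholangiocyte 2 cluster 33 of 34 nuclei held a UMI, at levels of 3551, 3088 and 4052 CPM in HNKO mice 1, 2 and 3. These came from 139, 111 and 267 UMIs, of which a single nucleus held 59, 25 and 57. The single WT nuclei of that cluster in WT mice 1 and 2 were at 4075 and 3523 CPM, from 8 and 17 UMIs. The Cholangiocyte 1 cluster was far lower, at 36.2, 0 and 65.7 CPM in the HNKO mice, so that the cholangiocyte level depends on which cluster the nuclei fell in.

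In endothelial cells Pdgfd was at 526, 602 and 277 CPM in WT mice 1, 2 and 3, against 394, 558 and 374 CPM in HNKO mice 1, 2 and 3 and the genotypes overlapped (log2 fold change -0.08 with SE 0.30, FDR 0.996 by edgeR). Stellate cells came next, at 253, 122 and 171 CPM in WT mice, against 247, 374 and 190.4 CPM in HNKO mice (log2 fold change 0.55 with SE 0.38, FDR 0.808 by edgeR). Only HNKO mouse 2 lay above the WT values there. Hepatocytes stayed at or below 3.6 CPM in every mouse (log2 fold change -0.57 with SE 0.58, FDR 0.856 by edgeR).

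Tgfbr1 (chr4:47353222-47414931), the type I receptor that carries the kinase acting on SMADs, was counted in all cell types. In hepatocytes it was at 122, 119 and 137 CPM in WT mice 1, 2 and 3, against 144, 129.8 and 111 CPM in HNKO mice 1, 2 and 3, and the genotypes overlapped (log2 fold change 0.03 with SE 0.17, FDR 0.98 by edgeR). The level followed the liver lobule in WT mice. In periportal clusters it was at 150, 146 and 147 CPM in WT mice, and in central clusters at 96.2, 62.7 and 69.6 CPM. HNKO mouse 2, the HNKO mouse with at least 30 nuclei in both zones, had 154 CPM in periportal and 103 CPM in central clusters.

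In stellate cells Tgfbr1 was at 139, 157 and 90.7 CPM in WT mice 1, 2 and 3, against 281, 116 and 329.6 CPM in HNKO mice 1, 2 and 3. HNKO mice 1 and 3 lay above all WT mice and HNKO mouse 2 lay among them (log2 fold change 0.94 with SE 0.44, FDR 0.713 by edgeR). In endothelial cells the values were 44.7, 22.3 and 46.2 CPM in WT mice, against 104, 32.5 and 133 CPM in HNKO mice, with HNKO mouse 2 again among the WT mice, and the gene did not pass the count filter there. The hepatocyte gene Alb was at 1412 CPM in endothelial cells and 5122 CPM in hepatocytes. The part of hepatocyte RNA in the endothelial Tgfbr1 values was not tested. Kupffer cells were at 387 to 409 CPM in WT and 431 to 543 CPM in HNKO mice, without a test because 3 WT mice held 4 to 6 Kupffer nuclei each.

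In CD45+ cells Tgfbr1 was at 210.2, 401 and 462 CPM in WT mice 1, 2 and 3, against 999, 334 and 758 CPM in HNKO mice 1, 2 and 3. WT mouse 3 had 7 CD45+ nuclei and was left out of the test, and the fold change did not pass the threshold (log2 fold change 1.21 with SE 0.54, FDR 0.603 by edgeR). The CD45+ 1 cluster held the highest level, at 449, 902 and 520 CPM in the WT mice (5, 5 and 4 nuclei) and 1374, 516 and 1401 CPM in the HNKO mice (52, 14 and 25 nuclei). These levels came from 6, 13 and 11 UMIs in WT and 257, 29 and 119 UMIs in HNKO mice. A single nucleus held 30%, 41.2% and 50% of the CD45+ Tgfbr1 UMIs in WT mice, against 19.8%, 32.4% and 25.3% in HNKO mice. CD45+ 2 was at 152 CPM and CD45+ 3 at 149 CPM over all mice. With Kupffer and CD45+ nuclei joined as immune cells, the difference was smaller (log2 fold change 0.80 with SE 0.37, FDR 0.775 by edgeR).

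Tgfbr2 (chr9:116084293-116175360), the type II receptor that binds the ligand, overlapped between genotypes in each of the cell types tested. In hepatocytes it was at 24.2, 14.6 and 23.9 CPM in WT mice 1, 2 and 3, against 29.6, 19.0 and 45.3 CPM in HNKO mice 1, 2 and 3 (log2 fold change 0.58 with SE 0.34, FDR 0.82 by edgeR). The endothelial level was 33.5, 145 and 36.9 CPM in WT mice, against 72.5, 108 and 75.9 CPM in HNKO mice (log2 fold change 0.26 with SE 0.53, FDR 0.996 by edgeR). Stellate cells held 37.9, 34.98 and 151 CPM in WT mice, against 86.1, 129 and 154 CPM in HNKO mice (log2 fold change 0.58 with SE 0.55, FDR 0.876 by edgeR). In CD45+ cells the log2 fold change was -0.21 (SE 0.51, edgeR FDR 0.977) with WT mouse 3 left out, and in immune cells 0.26 (SE 0.39, edgeR FDR 0.96).

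Pdgfra (chr5:75152292-75198215) and Pdgfrb (chr18:61045150-61085061), the alpha and beta PDGF receptors, were the members bound most closely to a single cell type. Stellate cells held 107 of the 118 Pdgfra UMIs and 106 of the 122 Pdgfrb UMIs of all nuclei. A UMI was found in 67 of 171 stellate nuclei for Pdgfra (39.2%) and in 63 for Pdgfrb (36.8%), against 0.23% and 0.39% of hepatocyte nuclei, although the median hepatocyte nucleus was deeper (4484 against 3378 UMIs). The hepatocyte level was 0.205% of the stellate level for Pdgfra and 0.353% for Pdgfrb. For the stellate markers this ratio ran from 0.0749% to 0.373%, apart from Reln at 1.56%. Whether the hepatocyte counts of the 2 receptors were background RNA was not tested. Endothelial and Kupffer nuclei held no UMI of either, which allows up to 1.22% of 245 endothelial and 3.75% of 80 Kupffer nuclei with a UMI, and again sets no limit on nuclei that express them.

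In stellate cells Pdgfra was at 114, 105 and 131 CPM in WT mice 1, 2 and 3, against 195, 102 and 219.7 CPM in HNKO mice 1, 2 and 3, from 9, 6 and 13 UMIs in WT mice, against 34, 15 and 30 UMIs in HNKO mice (log2 fold change 0.54 with SE 0.39, FDR 0.82 by edgeR). Pdgfrb was at 101, 70.0 and 121 CPM in WT mice, against 149, 81.6 and 322 CPM in HNKO mice (log2 fold change 0.86 with SE 0.52, FDR 0.808 by edgeR). HNKO mouse 2 lay below at least 2 WT mice for both receptors, and HNKO mice 1 and 3 lay above all WT mice for both.

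**Figure D2:**
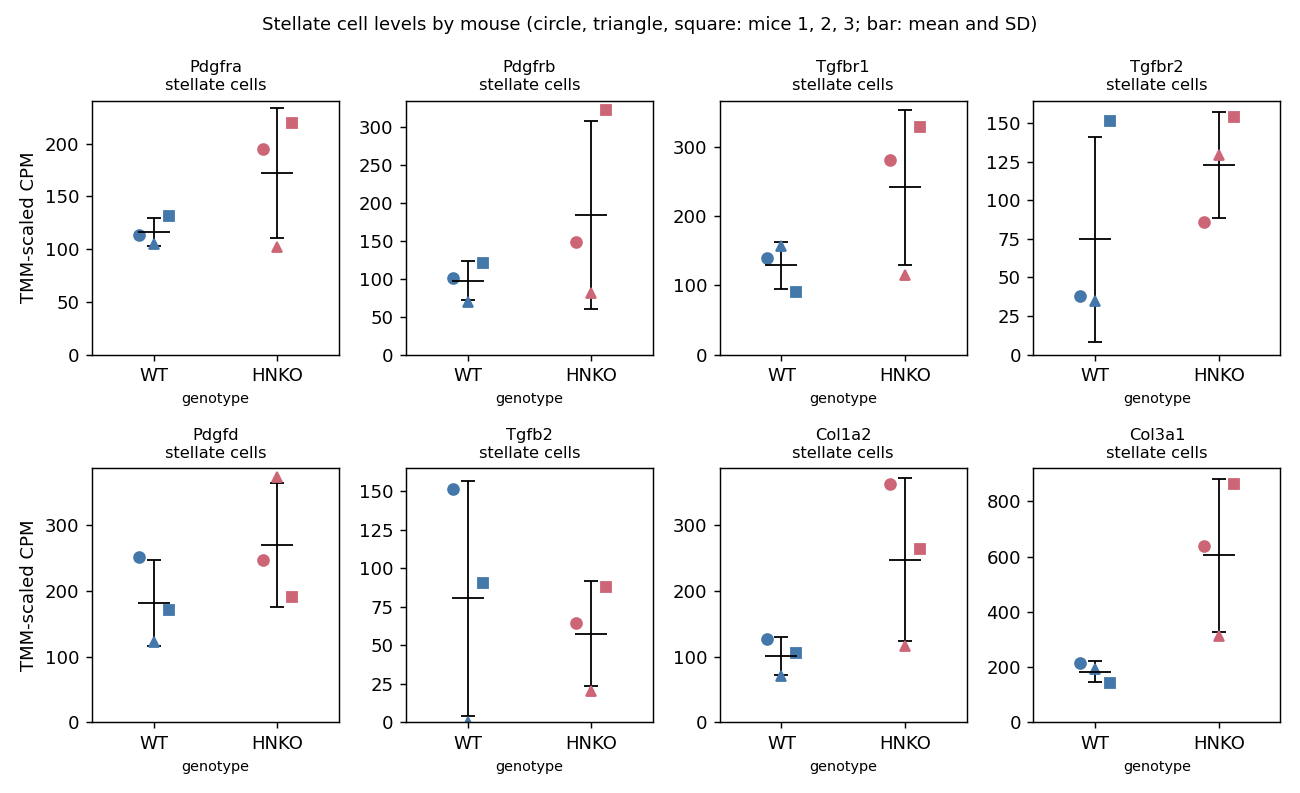
Levels in stellate cells by mouse, in CPM after TMM scaling, for 4 receptors, 2 ligands and 2 collagens; each point is a mouse (3 WT, 3 HNKO) and each bar the mean and SD of its genotype. HNKO mouse 2 lies among or near the WT points for the receptors, and for Col3a1 all 3 HNKO mice lie above the WT mice.

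Over the 10 genes in single cell types, 0 were called at an edgeR FDR of 0.05. In hepatocytes 5 members passed the count filter, and 1 of them, Pdgfa, had an unadjusted p under 0.05, which 5.91% of the 11808 genes tested had. Among these 5 it was also the only member whose genotypes did not overlap, as for 11.6% of genes tested. In endothelial cells 0 of 3 members had an unadjusted p under 0.05 (3.79% of 2743 genes), and in stellate cells 0 of 6 (7.11% of 2266 genes). In CD45+ cells it was 1 of 2, Tgfbr1 (8.11% of 2651 genes), and in immune cells 0 of 2 (6.44% of 2439 genes). Among all genes, edgeR called 0% in each of these 5 comparisons, and DESeq2 called 21, 1, 1, 4 and 0 genes in hepatocytes, endothelial, stellate, CD45+ and immune cells, with 0 members among them. The median log2 fold change of the members tested was 0.08, -0.08, 0.56, 0.50 and 0.53 in that order, beside 0.02, -0.00, 0.02, -0.01 and -0.02 for all genes tested.

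**Figure D3:**
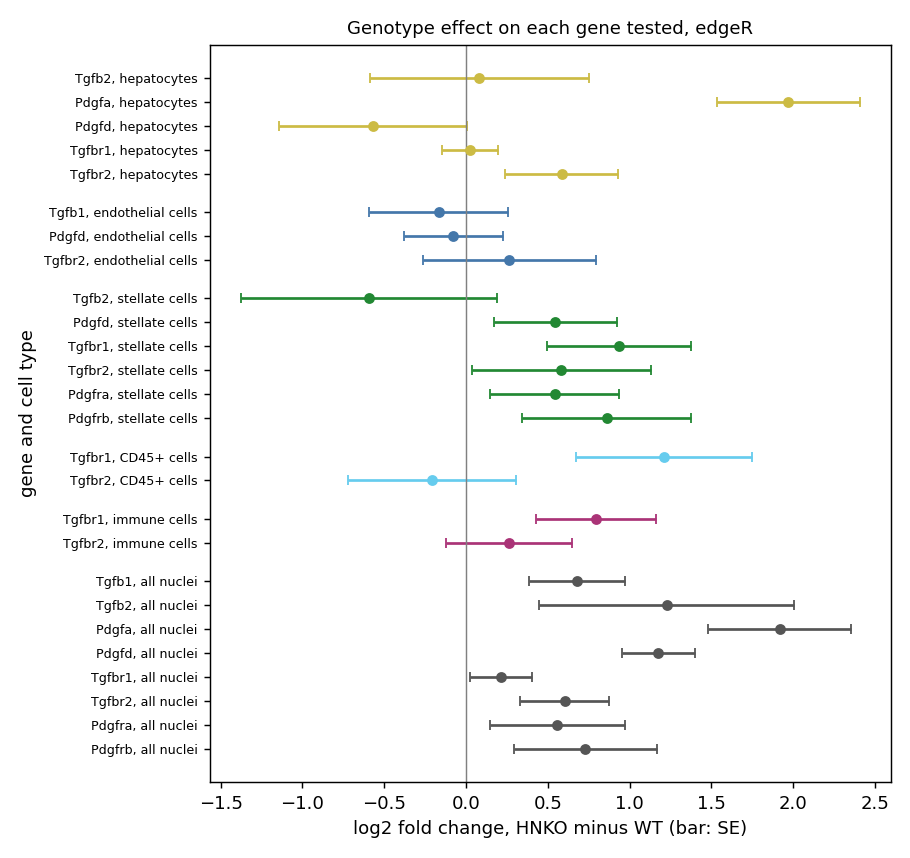
Log2 fold change of HNKO against WT (horizontal axis) for each member and cell type that passed the count filter, with bars of 1 standard error from the edgeR fit. Pdgfa in hepatocytes and in all nuclei stands farthest from 0, at 1.97 and 1.92, and the endothelial values lie between -0.17 and 0.26.

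With the nuclei of a mouse added up regardless of type, as a bulk liver sample would be, more members stood apart. In such sums a larger number of cells of a type and more RNA per cell cannot be told apart. Of the 8 members that passed the filter, all 8 had a positive log2 fold change (median 0.70, beside 0.02 for 13069 genes). In 3 of them, Tgfb1, Pdgfa and Pdgfd, the genotypes did not overlap, as for 14.4% of genes, and the same 3 had an unadjusted p under 0.05, as did 8.52% of genes. EdgeR called 0% of genes at its FDR threshold, whereas without the count filter the edgeR FDR was 0.0275 for Pdgfa and 0.0309 for Pdgfd. DESeq2 called 0.482% of 13066 genes, among them Pdgfd (FDR 0.0146) and Pdgfa (FDR 0.0436).

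For Pdgfd the sums were 22.2, 23.2 and 13.7 CPM in WT mice 1, 2 and 3, against 44.1, 42.7 and 47.0 CPM in HNKO mice 1, 2 and 3 (log2 fold change 1.18 with SE 0.22, FDR 0.446 by edgeR). Without the cholangiocyte nuclei, of which WT mice had 2 and HNKO mice 108, the log2 fold change was 0.30 (edgeR FDR 0.817). For Tgfb2 it was 1.23 (SE 0.78, edgeR FDR 0.68) with and -0.28 without those nuclei. Tgfb1 was at 5.8, 3.5 and 3.5 CPM in WT mice, against 7.3, 6.3 and 6.7 CPM in HNKO mice (log2 fold change 0.68 with SE 0.29, FDR 0.586 by edgeR), and Pdgfa at 2.6, 2.3 and 2.5 CPM in WT mice, against 10.0, 4.6 and 13.4 CPM in HNKO mice (log2 fold change 1.92 with SE 0.44, FDR 0.536 by edgeR). Tgfbr2 had a log2 fold change of 0.60 and Tgfbr1 of 0.21 in these sums. Scaling by library totals in place of TMM moved the median log2 fold change of all genes by 0.226 in all nuclei, 0.178 in hepatocytes and 0.102 in stellate cells, and the values given here are relative to that shift.

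The same sums show where the RNA of each gene came from in a mouse. Shares of UMIs by cell type were computed for Tgfb1, Tgfb2, Pdgfd, Tgfbr1 and Tgfbr2, the 5 members with at least 10 UMIs in every mouse. Of the Pdgfd UMIs, endothelial cells gave 61.0%, 58.8% and 50.4% in WT mice 1, 2 and 3, against 37.8%, 36.9% and 15.4% in HNKO mice. Cholangiocytes gave 10.4%, 18.5% and 0% in WT against 44.4%, 39.8% and 74.2% in HNKO mice. Of the Tgfb2 UMIs, cholangiocytes gave 0% in each WT mouse and 58.8%, 17.6% and 80.1% in HNKO mice. Hepatocytes gave 92.4%, 91.7% and 94.6% of the Tgfbr1 UMIs in WT mice, against 62.2%, 91.4% and 71.4% in HNKO mice, and CD45+ cells gave 2.3%, 3.4% and 2.3% against 19.4%, 4.0% and 11.9%. The UMIs of all genes shifted between types as well. Cholangiocytes gave 0.0521%, 0.115% and 0% of them in WT mice, against 3.35%, 0.625% and 5.55% in HNKO mice, hepatocytes gave 93.6% to 94.6% against 85.5% to 92.1%, and CD45+ cells 0.644% to 1.31% against 1.57% to 3.53%. HNKO mouse 2 stayed near the WT mice in Tgfbr1 and lay apart from them in Pdgfd. These 3 against 3 shares cannot go below p = 0.1 in a two-sided exact permutation test. Of the 30 pairs of gene and type, 8 reached it, with a smallest Benjamini-Hochberg value of 0.375. Among the 8 were the cholangiocyte shares of Tgfb2, Pdgfd, Tgfbr1 and Tgfbr2. Cholangiocyte nuclei numbered 1, 1 and 0 in WT mice 1, 2 and 3, against 40, 10 and 58 in HNKO mice. That left the cholangiocyte shares little room to overlap. The shares of a gene over the types make up a whole, so the pairs are not independent. The same count for other genes was not made, so the 8 pairs are a description only.

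**Figure D4:**
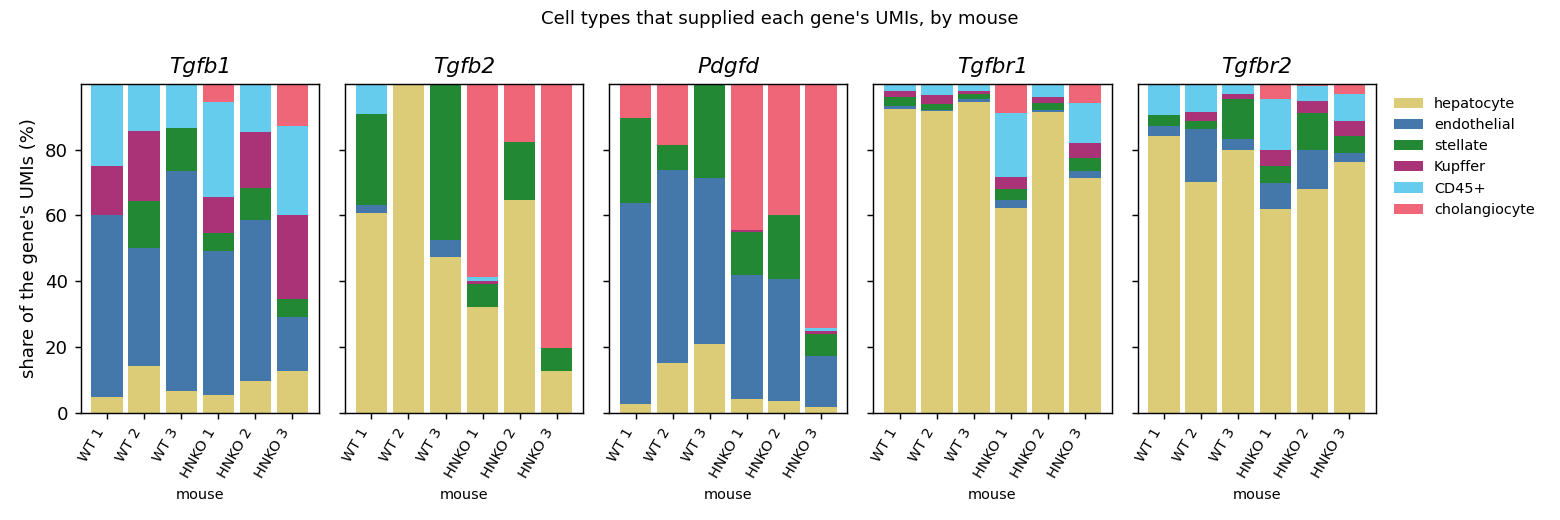
Share of the UMIs of each gene (percent, vertical axis) that came from each cell type, one stacked bar per mouse, for the 5 members with at least 10 UMIs in every mouse. The cholangiocyte part of Pdgfd is 0% to 18.5% in WT and 39.8% to 74.2% in HNKO mice, and the hepatocyte part of Tgfbr1 is lowest in HNKO mice 1 and 3.

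Whether a genotype effect differed between cell types was tested directly for 4538 genes, with mouse as a block. The tests of stellate cells against hepatocytes, endothelial cells against hepatocytes and stellate against endothelial cells each called 0% of genes. For Tgfbr1 the stellate effect exceeded the hepatocyte effect by 0.75 on the log2 scale (SE 0.48, edgeR FDR 0.647), and the endothelial effect exceeded it by 1.10 (SE 0.60, edgeR FDR 1). For Pdgfd the same differences were 0.99 (SE 0.63, edgeR FDR 0.635) and 0.52 (SE 0.58, edgeR FDR 1). A difference between cell types was therefore not detected for either gene, which does not show that the effects were equal.

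The wider pathway was followed in 46 further genes in 5 groups, for latency and activation of TGF-beta, co-receptors and further type I receptors, SMADs with their inhibitors, target genes, and other PDGF ligands with adaptor proteins. EdgeR called 0 of them in any cell type. In hepatocytes 24 passed the count filter, and 1 was higher and 1 lower in HNKO mice at an unadjusted p under 0.05 (5.91% of genes). In endothelial cells it was 0 of 17 (3.79%), in stellate cells 5 of 22, all 5 higher (7.11%), in CD45+ cells 3 of 16, all 3 higher (8.11%), in immune cells 3 of 16, all 3 higher (6.44%), and in all nuclei 7 higher and 1 lower of 36 (8.52%). In the CD45+ sums Pdgfc had 1 UMI in the 2 WT mice tested against 110 in HNKO mice, and Itgav 6 against 161. Both passed the count filter there through the HNKO mice, so the CD45+ count is not independent of the difference it counts. DESeq2 called Pdgfc in all nuclei and 0 of the list in the single cell types.

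Pdgfc, the fourth PDGF chain and a ligand of the alpha receptor, was the gene with the higher value in hepatocytes, at 23.3, 23.6 and 21.2 CPM in WT mice 1, 2 and 3, against 87.9, 24.9 and 67.8 CPM in HNKO mice 1, 2 and 3. HNKO mice 1 and 3 lay far above the WT mice and HNKO mouse 2 just above them (log2 fold change 1.41 with SE 0.41, FDR 0.82 by edgeR), and without HNKO mouse 2 the FDR was 0.0373. In immune cells it was at 131, 120.1 and 143 CPM in WT mice, against 294, 306 and 264 CPM in HNKO mice (log2 fold change 1.14 with SE 0.30, FDR 0.606 by edgeR). The genotypes did not overlap there, and the share of all genes without overlap in immune cells is not given here. In all nuclei the log2 fold change of Pdgfc was 1.63 (DESeq2 FDR 0.0192), and 1.42 without cholangiocyte nuclei.

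Tgfbr3, or betaglycan, a co-receptor that presents TGF-beta to its receptors, was the gene with the lower value in hepatocytes, at 52.2, 59.4 and 97.7 CPM in WT mice 1, 2 and 3, against 25.0, 43.6 and 33.4 CPM in HNKO mice 1, 2 and 3, without overlap (log2 fold change -1.04 with SE 0.30, FDR 0.82 by edgeR). It marked the central lobule in WT mice, at 171, 201 and 188 CPM in central clusters against 9.7, 20.7 and 49.6 CPM in periportal clusters. In the central clusters of HNKO mice it was at 58.4, 141 and 76.3 CPM, below each WT mouse. Pdgfc ran the other way there, at 34.6, 50.1 and 38.3 CPM in WT and 121, 68.6 and 132 CPM in HNKO mice. The central nuclei lay in different clusters, with all WT nuclei and 80 of 81 of HNKO mouse 2 in Central 1, 93 of 100 of HNKO mouse 1 in Central HNKO 1 and all 78 of HNKO mouse 3 in Central HNKO 2, so that the shared cluster rests on HNKO mouse 2.

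**Figure D5:**
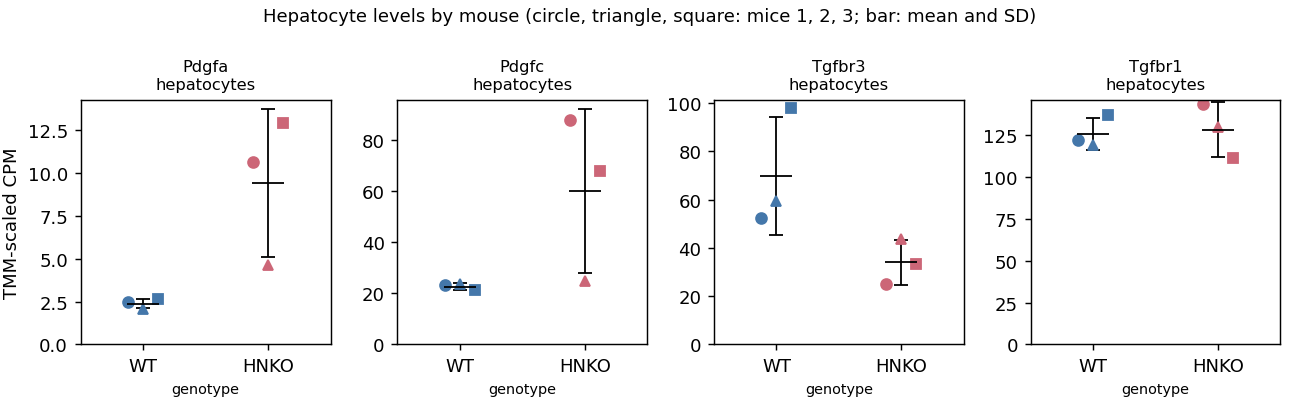
Levels in hepatocytes by mouse, in CPM after TMM scaling, for Pdgfa, Pdgfc, Tgfbr3 and Tgfbr1; each point is a mouse (3 WT, 3 HNKO) and each bar the mean and SD of its genotype. Pdgfa and Pdgfc lie higher and Tgfbr3 lower in every HNKO mouse than in every WT mouse, with HNKO mouse 2 nearest to the WT mice, while Tgfbr1 overlaps.

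By group, the hepatocyte log2 fold changes ran as follows. Of the activation group 3 genes were tested, from -0.41 for Nrros, which anchors latent TGF-beta on macrophages, to -0.02 for the integrin subunit Itgav. Of the co-receptor group Acvr1 was at -0.20. The 8 SMADs and inhibitors tested lay between -0.18 for Smad4, the shared SMAD, and 0.88 for Smad7, which inhibits the receptor. Among the targets Fn1 (fibronectin) was at -0.52, and the lowest of the PDGF group was Pdgfrl at -0.45.

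In stellate cells Col3a1, a fibrillar collagen and a target gene, had the largest log2 fold change of the list, at 215, 192 and 141 CPM in WT mice 1, 2 and 3, against 637, 313 and 864 CPM in HNKO mice 1, 2 and 3. The genotypes did not overlap, as for 11.4% of the genes tested there (log2 fold change 1.73 with SE 0.42, FDR 0.539 by edgeR), and the FDR was 0.0263 without HNKO mouse 2 and 0.00928 without the count filter. Col1a2, a chain of type I collagen, was at 126, 70.0 and 106 CPM in WT mice, against 361, 116 and 264 CPM in HNKO mice, where WT mouse 1 lay above HNKO mouse 2 (log2 fold change 1.29 with SE 0.46, FDR 0.645 by edgeR). The log2 fold change was 1.11 for Fn1, 1.37 for Smad3, which carries the TGF-beta signal to the nucleus, and 1.47 for Pmepa1, a target that dampens the same signal. All 5 targets tested were above 0, with a median of 1.11, down to 0.16 for Tgfbi. Of the 8 SMADs and inhibitors tested 7 were above 0, with a median of 0.19, from the 1.47 of Pmepa1 to -0.12 for Smurf2. In the activation, co-receptor and PDGF groups 1 of 2, 1 of 3 and 2 of 4 genes were above 0. These ran from 0.76 for Ltbp1 to -0.18 for Itgav, from 0.46 for Acvr1 to -0.49 for Tgfbr3, and from 0.16 for Pik3r1 to -0.76 for Pik3ca.

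The stellate nuclei differed between the genotypes in their marker levels too, which were not tested as sums. The 7 stellate markers added up to 18829 CPM in WT mice (17394 to 20214) and 11907 CPM in HNKO mice (7939 to 18270). The cholangiocyte list, of which Bicc1 is also high in stellate cells, was at 510 CPM (335 to 715) and 1238 CPM (699 to 1730), with Krt19 at 0 in both. The hepatocyte list was at 1898 CPM (1428 to 3278) and 3273 CPM (2088 to 4416). The myofibroblast and portal fibroblast list was at 278 CPM (106 to 370) and 453 CPM (192 to 786), with Thy1 and Gli1 at 0 in both and Acta2 at 0 in WT mice, and the smooth muscle list at 126 CPM (9.99 to 321) and 143 CPM (66.4 to 214). The part of these markers in the stellate values of members and targets was not tested.

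In leukocytes the genes with an unadjusted p under 0.05 were Pdgfc, Itgav and Grb2, in both the CD45+ and the immune sums. Itgav, an integrin subunit that helps release TGF-beta from its latent form, had a log2 fold change of 2.04 in CD45+ and 1.03 in immune cells, and Pdgfc of 3.90 and 1.14. In the CD45+ sums Pdgfc was at 0, 23.6 and 0 CPM in WT mice 1, 2 and 3, against 296, 136 and 87.5 CPM in HNKO mice 1, 2 and 3, so that the larger value rests on few WT counts. The make-up of these sums differed between the genotypes, since CD45+ 1 gave 5, 5 and 4 of 15, 16 and 7 nuclei in WT mice but 52, 14 and 25 of 68, 26 and 45 in HNKO mice. Pdgfc was at 275 CPM in CD45+ 1, 35.4 CPM in CD45+ 2 and 0 CPM in CD45+ 3 over all mice, and its edgeR FDR was 0.0101 without the count filter. The lowest values were -0.94 for Furin, a protease that processes TGF-beta precursors, in CD45+ cells and -0.64 for Fn1 in immune cells. In endothelial cells the list ran from -0.54 for Ltbp4, a latency protein, to 0.78 for Grb2, an adaptor of tyrosine kinase receptors.

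The genes most like each member were found by Pearson's r of log2(CPM + 1) over 12 values, 6 cell types in 2 genotypes, among 11590 genes with at least 100 UMIs. These points share libraries and depth, and the values describe a pattern across cell types only. Pdgfra had the closest neighbors, Runx1t1 (r = 0.999), Antxr1 (0.994) and Irag1 (0.989). Pdgfrb was closest to Tbx20 (0.988), then Nr1h5 and Pappa. Pdgfd was closest to Jag1 (0.960), a Notch ligand, then Cdan1 and Auts2, and Tgfb2 to Dclk1 (0.922), then Smpd3 and Lonrf3. Tgfb1 was closest to the gene ENSMUSG00000097154 (0.989), then Adgre5 and Slc44a2. For Tgfbr1 the order was Mm2pr (0.984), Ensa and Rps6kc1, for Tgfbr2 it was Trim12a (0.985), Smc4 and Strada, and for Pdgfa it was 2310061I04Rik (0.943), Lrrc47 and Bri3bp. Tgfb3 and Pdgfb had fewer than 100 UMIs and were not compared.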

How the data were processed

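Livers of 3 WT and 3 HNKO mice were dissociated to nuclei, stained with a hashtag per mouse, and sequenced in 2 RNA and 2 hashtag pools (10x Genomics 3′ chemistry). The authors made reads with Cell Ranger version 5.0.1, quantified spliced and unspliced RNA with Alevin on GRCm38 and GENCODE M25, and deposited estimated counts of UMIs per gene and nucleus, of which 10.1% of nonzero values were more than 0.001 from a whole number. The deposited hashtag counts and the authors' table of mouse and cluster per nucleus gave mouse, genotype and type, and barcodes shared between nuclei were 0. A further matrix of corrected values, a score that the authors predicted at a common depth, was not used. The authors had removed nuclei that carried the hashtags of more than 1 mouse or very many genes. No doublet caller was run here.

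UMIs were summed per mouse and type, rounded, and tested with edgeR (version 4.0.16, under R version 4.3.3) after filterByExpr and TMM scaling (quasi-likelihood F test, two-sided, Benjamini-Hochberg FDR threshold 0.05). A mouse entered with at least 10 nuclei of a type, so that Kupffer cells were tested only within the immune sum, CD45+ cells without WT mouse 3, and cholangiocytes not at all. The interaction of genotype and type was fitted with mouse as a block. DESeq2 version 1.42.0, other filters and scalings, and leaving out each mouse were alternatives, and 2 of them, library totals and sums without cholangiocyte nuclei, were chosen after seeing the data. The tests were first tested on simulated data. The limits of 3 counts cover counting error only. The 10 genes are all named. Of the 46 pathway genes those with an unadjusted p under 0.05, or the largest and smallest fold change of a group, are named in hepatocytes and stellate cells, with a few in the other types chosen after their values were seen, and 1 gene that this rule picks is not reported here. The members and all lists were chosen with earlier results of these data known. Gene positions are those of GRCm38. Python version 3.11.15 with pandas version 2.3.3, scipy version 1.17.1 and matplotlib version 3.10.9 was used for the rest.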

Additional observations from a re-analysis of the deposited data

How the results depend on the processing

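No paired analysis was possible because the deposited table tells mice apart by hashtag alone and gives no number that pairs a WT with an HNKO mouse. The count of 0 genes called with edgeR depended on the setting. Without the filter on low counts the calls were 36 in hepatocytes, 16 in endothelial, 31 in stellate, 23 in CD45+ and 14 in immune cells and 84 in all nuclei. DESeq2 called 21 in hepatocytes, 1 in endothelial, 1 in stellate and 4 in CD45+ cells and 63 in all nuclei. Library totals without TMM gave 1 call in CD45+ cells, immune sums without the top 5% of nuclei gave 1, and the endothelial against hepatocyte interaction with at least 10 UMIs in each type gave 2. Leaving out 1 mouse at a time gave 0 to 32 calls in hepatocytes, 0 to 34 in stellate cells, 0 to 7 in CD45+ cells, 0 to 90 in all nuclei, and 0 in endothelial and immune cells. For the interactions it gave 0 to 153 (stellate against hepatocytes), 0 to 11 (endothelial against hepatocytes) and 0 to 16 (stellate against endothelial). Each highest count came without HNKO mouse 2, whose part was not tested further.

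The sign of small fold changes depended on 1 mouse. On the log2 scale the range was -0.72 to 0.87 for Tgfb2 and -0.0644 to 0.13 for Tgfbr1 in hepatocytes, -0.42 to 0.10 for Tgfb1, -0.36 to 0.14 for Pdgfd, -0.0778 to 1.23 for Tgfbr2 and -0.0533 to 0.15 for Tgfbr3 in endothelial cells, -1.11 to 0.0855 for Tgfb2 in stellate cells, -0.42 to 0.0816 for Tgfbr2 in CD45+ cells, and -0.81 to 0.0284 for the Tgfbr1 interaction of stellate against endothelial cells. Without the count filter Pdgfd was at 0.0819 in endothelial cells and Tgfbr2 at 0.14 in CD45+ cells. Without cholangiocyte nuclei Tgfb2 in all nuclei was at -0.28. For shares of UMIs, the HNKO minus WT difference of Tgfb1 in Kupffer cells ran from -0.402 to 10.3 percentage points without 1 mouse, and with the types weighted alike that of Tgfb1 in CD45+ cells was -5.34 and that of Tgfbr2 in hepatocytes 0.154. Apart from these, 514 of the fold changes and shares computed under other settings kept their sign. The fold changes among them also kept their side of the threshold, which was not checked for shares. A further 14 fold changes passed the threshold that the reported fit missed. The sums of the types other than hepatocytes held far fewer UMIs, and Tgfb3 and Pdgfb passed the count filter nowhere.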
